A study of Homo sapiens with 18 samples.

Results

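The mitosis genes are a list of 60 human genes whose products carry a cell from the end of DNA replication through chromosome separation and cytokinesis. They were taken by symbol from the 40184 gene identifiers of the deposited expression table, and all 60 matched. The rule also asked for at least 1 CPM, the read count scaled to a common library size, in 3 or more of a line's libraries: 60 genes passed for Molm-14, 60 for MV4-11 and 59 for SKNO-1, where PRC1 did not. RNA-seq was done on 18 libraries from 3 cell lines that were derived from human acute myeloid leukaemia. FLT3-ITD, an internal tandem duplication that keeps the receptor tyrosine kinase FLT3 active, is carried by Molm-14 and by MV4-11, and SKNO-1 has the KIT mutation N822K. Each line was given DMSO, the solvent, or RMC-4550 at 500 nM for 24 h, with 3 libraries in each of the 6 groups. RMC-4550 is an allosteric inhibitor of SHP2, a phosphatase that couples growth factor receptors to the RAS and ERK pathway. SKNO-1 cells were grown with 10 ng/mL human GM-CSF and the other lines without it, so KIT genotype, line and growth factor cannot be told apart. The libraries are labelled biological replicates and nothing more is said of them, so p-values measure the spread between these libraries.

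Mitosis is driven by cyclin-dependent kinase CDK1 with cyclins A and B, and most of the genes involved are transcribed in late S phase, G2 and mitosis and silenced again in G1. FOXM1 and B-MYB, the latter acting with the MuvB complex, switch many of them on, and the DREAM complex represses the same promoters in resting cells. Their RNA is therefore found mainly in dividing cells, and leukaemia lines with an active receptor kinase divide without pause.

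Total reads recovered from the deposited values lay between 17434810 and 19959917 per library. The share of reads in mitochondrially encoded genes was 5.07 to 7.02% in 14 libraries. It was 10.52 to 15.02% in the other 4, which were Molm-14 with RMC-4550 replicate 2, MV4-11 with DMSO replicates 1 and 3 and MV4-11 with RMC-4550 replicate 1. These 4 are called the high-mitochondrial libraries. None of the 15 mitochondrially encoded genes was called between treatments in any line, but their changes ran in opposite directions in 2 lines. With RMC-4550 all 15 were higher in Molm-14 (median log2 0.466) and all 15 were lower in MV4-11 (median log2 -0.504). In SKNO-1, 9 of the 15 were lower. The median difference in response of Molm-14 against MV4-11 was 0.954, also without a call. The missing calls therefore do not show that the mitochondrial share was balanced between treatments. The myeloid markers PTPRC, CD33 and SPI1 were read in every library of all 3 lines, while MPO reached only 4.40 CPM in Molm-14 and MV4-11 against 315 to 437 CPM in SKNO-1. In Molm-14, MPO was called lower with RMC-4550 (-1.36) and SPI1 higher (0.48), and no other call was made among these 4 markers in any line. Among markers of other cell types, CD3E, MS4A1 and EPCAM had at most 2 reads in any library and HBB at most 19. COL1A1 reached 10.2 CPM and was not called in any line.

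Promoters of mitosis genes often hold a CHR element, bound by the DREAM and B-MYB-MuvB complexes, downstream of a CCAAT box, bound by NF-Y. RefSeq promoter windows on GRCh38.p14, from 250 bases before to 50 after the first listed start, matched 51 of the 60 genes. The missing ones are AURKA, FOXM1, BUB3, TTK, CENPM, BIRC5, RACGAP1, TPX2 and UBE2C. The CHR was searched as TTTGAA or TTCGAA and the CCAAT box as CCAAT, each on both strands, and the motifs may overlap. The 120 bases before the start are printed for 6 members, with both motifs in capitals. KIF11 (chr10:92593010-92593129, + strand), KIF4A (chrX:70289984-70290103, + strand), ESPL1 (chr12:53268179-53268298, + strand) and CDC20 (chr1:43358861-43358980, + strand) show a CCAAT box upstream of a CHR. MKI67 (chr10:128126424-128126543, - strand) shows 2 CHR matches, the nearer one running into a CCAAT box, and CENPK (chr5:65563169-65563288, - strand) shows CCAAT boxes without a CHR. Each runs 5′ to 3′ on the gene's own strand:
KIF11: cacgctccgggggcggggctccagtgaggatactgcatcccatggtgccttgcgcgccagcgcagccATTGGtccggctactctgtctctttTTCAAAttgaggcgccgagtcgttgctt
KIF4A: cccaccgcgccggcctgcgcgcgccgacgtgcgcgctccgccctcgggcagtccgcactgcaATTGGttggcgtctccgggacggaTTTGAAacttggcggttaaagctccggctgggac
ESPL1: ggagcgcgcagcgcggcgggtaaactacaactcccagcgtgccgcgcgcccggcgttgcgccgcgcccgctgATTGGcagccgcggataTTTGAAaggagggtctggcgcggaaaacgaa
CDC20: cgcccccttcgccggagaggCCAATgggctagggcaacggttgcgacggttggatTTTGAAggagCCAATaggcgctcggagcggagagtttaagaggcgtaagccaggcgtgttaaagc
MKI67: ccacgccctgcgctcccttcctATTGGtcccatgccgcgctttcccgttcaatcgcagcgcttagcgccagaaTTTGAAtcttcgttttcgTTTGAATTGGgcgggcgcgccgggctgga
CENPK: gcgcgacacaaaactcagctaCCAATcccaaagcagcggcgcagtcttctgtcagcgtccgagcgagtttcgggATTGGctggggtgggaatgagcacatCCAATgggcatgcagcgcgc

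In KIF11 the CHR begins at -28 and the CCAAT box at -53, counted from the start site, and in KIF4A they begin at -34 and -58. ESPL1 has them at -31 and -48. Of the 51 members with a window, 36 (70.6%) held a CHR, against 16.6% of 27305 RefSeq promoters and 11.52% of the promoters of 11011 genes in the fit. A CCAAT box was also found in 36 members (70.6%), against 35.7% of all promoters. Both motifs stood together in 27 members (52.9%), against 6.58% of all promoters and 4.84% of those of fitted genes. The CHR variant TTTAAA was found in 29.4% of members and 12.4% of all promoters. The E2F site, searched as TTTCCCGC, TTTGGCGC, TTTGCCGC or TTTCGCGC on both strands, was found in 5 members (9.80%), against 3.33% of all promoters and 5.28% of those of fitted genes. A match is a description of the letters and does not show that a factor binds there.

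RNA of the mitosis genes fell with RMC-4550 in all 3 lines. Summed over the 60 genes, the level went from between 4402 and 4450 CPM across the DMSO libraries of Molm-14 to between 2388 and 2594 CPM across the treated ones. MV4-11 went from between 3559 and 4283 CPM to between 2266 and 2410 CPM, and SKNO-1 from between 3712 and 4037 CPM to between 1706 and 1853 CPM. The treated and DMSO sums did not overlap in any line. RNA was measured on whole cultures, so fewer cells in mitosis and less RNA per dividing cell cannot be told apart.

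A gene was called lower or higher when limma's moderated test, adjusted by Benjamini-Hochberg over all genes tested in that comparison, gave a p under 0.05. In Molm-14, 56 of 60 members were called lower, against 25.2% of the 13971 genes tested, and 1 was called higher, against 21.5%, where 46.7% of genes moved in either direction. In MV4-11, 49 of 60 were called lower, against 8.03% of 14739 genes, and in SKNO-1, 56 of 59, against 16.2% of 14670 genes. None was called higher in MV4-11 or SKNO-1, against 5.85% and 10.8% of genes. The median log2 change of the members was -1.19 for Molm-14, -0.81 for MV4-11 and -1.29 for SKNO-1, where the medians of all genes tested were -0.06, -0.01 and -0.05. All 3 treated libraries lay below all 3 DMSO libraries for 56, 54 and 58 members in that order, against 33.1%, 13.5% and 35.4% of all genes tested. Lower calls in all 3 lines were made for 48 members. The same count over all genes was not taken, and it can be no more than the 1183 genes called lower in MV4-11. Another 7, CCNA2, PLK1, BUB1, BIRC5, INCENP, RACGAP1 and MKI67, were called in SKNO-1 and Molm-14 and missed the threshold in MV4-11. CDC25B, BUB3 and SMC4 were called lower in 1 line each, and PRC1 and NUSAP1 in none. Without the high-mitochondrial libraries, a setting chosen after the data were seen, 57, 58 and 58 members were called lower, against 31.3%, 18.1% and 32.1% of all genes. That setting leaves MV4-11 with 1 DMSO library, which is assumed to vary like the other groups. The model takes the spread of a gene from all 3 lines together, so SKNO-1 calls can change though no SKNO-1 library was left out. A fit of MV4-11 on its own gave 32, against 2.35% of all genes. Over all genes, SKNO-1 had 1588 higher and 2381 lower calls, and scaling by median ratios gave 1977 and 1932. That scaling turned 862 higher and 1183 lower into 1018 and 944 for MV4-11, and 2997 and 3525 into 3316 and 3213 for Molm-14.

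**Figure D1:**
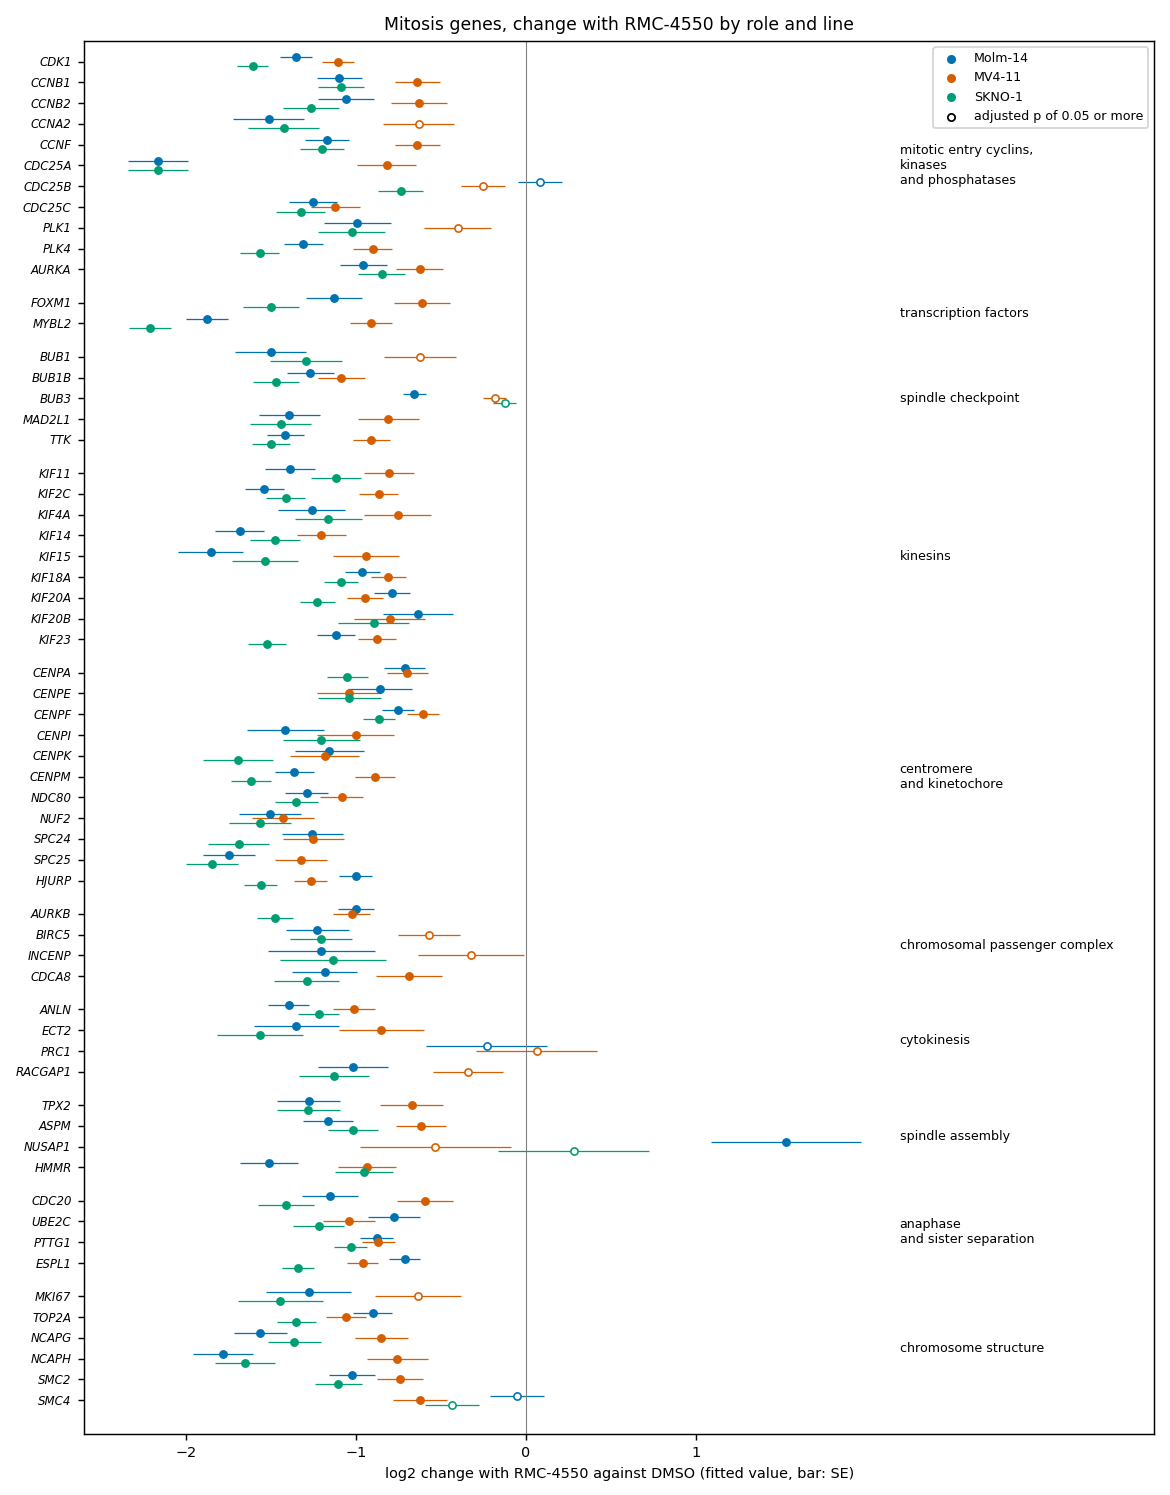
Fitted log2 change with RMC-4550 against DMSO for the 60 mitosis genes, grouped by role, with 1 point per line (Molm-14, MV4-11, SKNO-1), bars for the SE, and open points where the adjusted p was 0.05 or more. Nearly all points lie left of 0, MV4-11 points are mostly nearest to 0, and NUSAP1 in Molm-14 (1.53) is the 1 filled point to the right.

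Each library was also set against the mean of its own line's DMSO libraries. The median over the 60 members was -1.07, -1.39 and -1.08 in the treated Molm-14 libraries, -0.91, -0.78 and -0.79 in those of MV4-11 and -1.23, -1.34 and -1.31 in those of SKNO-1. The DMSO libraries lay between -0.03 and 0.06 in Molm-14 and SKNO-1. In MV4-11 they lay at -0.12, 0.22 and -0.11, and the pair of lower values belongs to the high-mitochondrial libraries. The lowest treated library of Molm-14 and of MV4-11 was also a high-mitochondrial one. Among libraries under 10% mitochondrial reads the median change was -1.06 in Molm-14 and -1.003 in MV4-11 (1 DMSO and 2 treated libraries), and among those above 10% it was -0.76 in MV4-11 (2 DMSO libraries and 1 treated). The part of these libraries in the smaller MV4-11 change was not tested beyond these values.

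**Figure D2:**
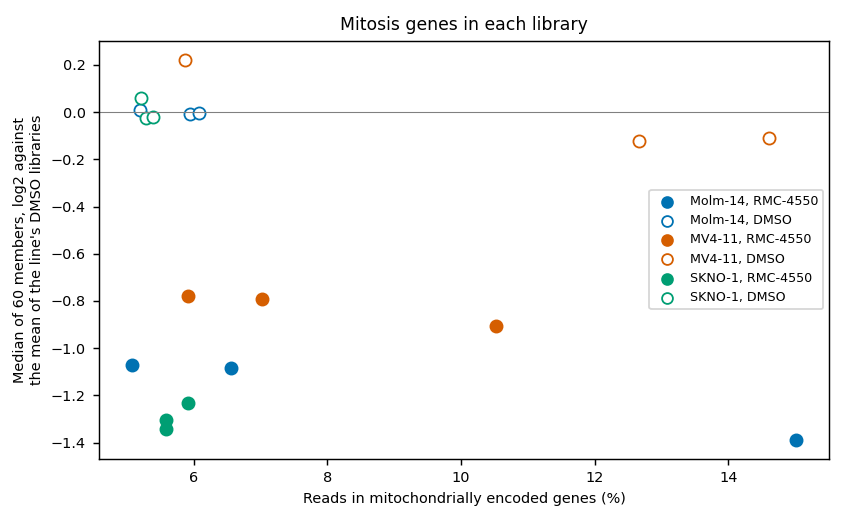
Median over the 60 mitosis genes of each library's log2 difference from the mean of its line's DMSO libraries, against the percent of its reads in mitochondrially encoded genes, with open points for DMSO and filled points for RMC-4550. All 9 treated libraries lie at -0.78 or lower, and the DMSO libraries lie between -0.12 and 0.22.

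The genes of mitotic entry code for the cyclins and kinases that start mitosis and the phosphatases that release them. Of these 11 genes, 10 were called lower for Molm-14, 8 for MV4-11 and 11 for SKNO-1, with medians of -1.17, -0.64 and -1.26. CCNB1, cyclin B1, which activates CDK1, read 48.01, 51.7 and 49.9 CPM in the DMSO libraries of Molm-14 and 24.8, 18.1 and 28.2 CPM with RMC-4550 (log2 -1.10 ± 0.14, SE, adjusted p = 9.6e-06). In MV4-11 it read 46.3, 61.6 and 49.97 CPM and then 31.3, 37.1 and 32.6 CPM (log2 -0.64 ± 0.14, SE, adjusted p = 0.0044), and in SKNO-1 62.3, 63.1 and 66.2 CPM and then 29.8, 30.1 and 30.1 CPM (log2 -1.09 ± 0.14, SE, adjusted p = 2e-05). No treated library reached any DMSO library of its line, and the fall was about as large in Molm-14 as in SKNO-1. CDK1 itself was called lower in all 3 lines, at 2.56-fold, 2.15-fold and 3.05-fold.

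CDC25A, which strips inhibitory phosphates from cyclin-dependent kinases, had the largest fall of the members of Molm-14. It read 22.8, 22.03 and 23.2 CPM with DMSO there and 6.34, 3.78 and 5.32 CPM with RMC-4550, a 4.48-fold fall (log2 -2.16 ± 0.18, SE, adjusted p = 1.5e-07). SKNO-1 gave 17.2, 17.6 and 17.6 CPM and then 3.33, 4.27 and 4.09 CPM, a 4.48-fold fall (log2 -2.16 ± 0.18, SE, adjusted p = 2.4e-07). MV4-11 gave 13.2, 18.8 and 14.2 CPM and then 7.71, 8.30 and 10.05 CPM, a 1.76-fold fall (log2 -0.82 ± 0.18, SE, adjusted p = 0.0049). All 3 treated groups stood clear of their DMSO groups, and the MV4-11 change was the smallest.

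CDC25B, a phosphatase of the same family that acts at the G2/M transition, did not follow it. In Molm-14 it read 41.01, 42.6 and 43.4 CPM with DMSO and 50.5, 38.6 and 46.2 CPM with RMC-4550, overlapping groups with no call (log2 0.08 ± 0.13, SE, adjusted p = 0.62). In MV4-11 it read 41.6, 50.7 and 39.7 CPM and then 32.9, 36.5 and 41.5 CPM, again overlapping (log2 -0.25 ± 0.13, SE, adjusted p = 0.24). In SKNO-1 it read 48.9, 52 and 48.4 CPM and then 25.3, 35.1 and 29.8 CPM (log2 -0.74 ± 0.13, SE, adjusted p = 0.00055). SKNO-1 was the 1 line with a call and with separate groups, and without the high-mitochondrial libraries CDC25B was also called in MV4-11 (-0.38). CDC25C, the third phosphatase of the family, was called lower in every line, at 2.38-fold, 2.18-fold and 2.50-fold.

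CCNA2 and PLK1 were called in SKNO-1 and Molm-14 and missed the threshold in MV4-11. CCNA2, cyclin A2, which acts in S phase and G2, read 43.8, 76.6 and 38.9 CPM with DMSO in MV4-11 and 27.4, 35.3 and 36.4 CPM with RMC-4550 (log2 -0.63 ± 0.21, SE, adjusted p = 0.056). PLK1, the Polo kinase of centrosome maturation and mitotic entry, read 61.8, 108 and 61.6 CPM and then 45.4, 60.3 and 65.01 CPM there (log2 -0.40 ± 0.20, SE, adjusted p = 0.21). In both genes DMSO replicate 2 stood well above the 2 high-mitochondrial DMSO libraries, and only the PLK1 groups overlapped. The falls of CCNA2 were 2.85-fold in Molm-14 and 2.69-fold in SKNO-1, and those of PLK1 were 1.99-fold and 2.04-fold. Without the high-mitochondrial libraries both were called in MV4-11, CCNA2 at -1.10 and PLK1 at -0.78, and CCNA2 was also called without MV4-11 DMSO replicate 3 alone (-0.82). The remaining members of this role, CCNB2, CCNF (cyclin F, part of a ubiquitin ligase), PLK4 (the kinase of centriole duplication) and AURKA (the spindle pole kinase), were called lower in every line, from 1.54-fold for AURKA in MV4-11 to 2.96-fold for PLK4 in SKNO-1. CCNB2 lost its MV4-11 call without DMSO replicate 2 (-0.46) or without RMC-4550 replicate 1 (-0.51).

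The transcription factors FOXM1 and MYBL2 were called lower in all 3 lines. FOXM1, a forkhead factor of G2/M genes, read 50.3, 49.02 and 50.4 CPM with DMSO in Molm-14 and 25.4, 21.5 and 21.8 CPM with RMC-4550 (log2 -1.13 ± 0.17, SE, adjusted p = 5.2e-05). In SKNO-1 it went from 56.4, 57.4 and 56.9 CPM to 18.6, 22.5 and 19.4 CPM (log2 -1.50 ± 0.17, SE, adjusted p = 5.7e-06). In MV4-11 it went from 37.9, 54.98 and 33.1 CPM to 21.3, 27.6 and 32.7 CPM (log2 -0.61 ± 0.17, SE, adjusted p = 0.021). The groups were tight and far apart in Molm-14 and SKNO-1, while in MV4-11 the lowest DMSO value and the highest treated value were nearly equal. The MV4-11 call was lost without DMSO replicate 2 (-0.40), RMC-4550 replicate 1 (-0.45) or RMC-4550 replicate 2 (-0.64). Of the exonic bases of FOXM1, 15.9% are shared with ITFG2 on the opposite strand, and whether the counting used strand is not given in the sources used here.

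MYBL2 codes for B-MYB, the partner of MuvB, and had the largest fall of the members of SKNO-1. It went from 132, 132 and 137 CPM to 27.9, 30.4 and 28.1 CPM there, a 4.64-fold fall (log2 -2.21 ± 0.12, SE, adjusted p = 9.2e-09). In Molm-14 it went from 192, 186 and 188 CPM to 58.1, 40.7 and 57.2 CPM, a 3.67-fold fall (log2 -1.88 ± 0.12, SE, adjusted p = 2e-08). In MV4-11 it went from 122, 152 and 117 CPM to 62.8, 68.7 and 75.6 CPM, a 1.88-fold fall (log2 -0.91 ± 0.12, SE, adjusted p = 0.00012). The treated and DMSO groups were far apart in every line.

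The spindle checkpoint holds back anaphase until every chromosome is attached to the spindle. Its 5 genes were called lower in 5, 3 and 4 cases for Molm-14, MV4-11 and SKNO-1, with medians of -1.39, -0.81 and -1.44. BUB1B, which codes for the checkpoint protein BubR1, read 53.6, 52.1 and 52.03 CPM with DMSO and 20.8, 23.3 and 21.4 CPM with RMC-4550 in Molm-14 (log2 -1.27 ± 0.14, SE, adjusted p = 2.5e-06). It read 43.4, 59.5 and 44.8 CPM and then 20.5, 25.8 and 22.8 CPM in MV4-11 (log2 -1.09 ± 0.14, SE, adjusted p = 6.1e-05), and 60.4, 54.2 and 50.9 CPM and then 24.4, 17.8 and 18.1 CPM in SKNO-1 (log2 -1.47 ± 0.14, SE, adjusted p = 9.9e-07). Every treated library was below every DMSO library, and all 3 falls were over 2-fold. TTK, the MPS1 kinase that starts checkpoint signalling at kinetochores, fell 2.67-fold, 1.88-fold and 2.83-fold, and MAD2L1, the MAD2 protein that binds CDC20, fell 2.63-fold, 1.75-fold and 2.72-fold. BUB1, the kinase that brings other checkpoint proteins to kinetochores, fell 2.83-fold in Molm-14 and 2.45-fold in SKNO-1. In MV4-11 BUB1 read 56.6, 97.5 and 52.8 CPM with DMSO and 33.3, 51.1 and 46.8 CPM with RMC-4550, groups that did not overlap but gave no call (log2 -0.62 ± 0.21, SE, adjusted p = 0.06). It was called there without the high-mitochondrial libraries (-0.99) and without DMSO replicate 3 alone (-0.79).

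BUB3, the adaptor that binds BUB1 and BubR1 and also has work outside mitosis, changed less than its partners. It read 376, 384 and 376 CPM with DMSO in Molm-14 and 249, 226 and 246 CPM with RMC-4550, a 1.58-fold fall (log2 -0.66 ± 0.07, SE, adjusted p = 1.6e-06). In MV4-11 it read 330.1, 318 and 323 CPM and then 302, 289 and 265 CPM (log2 -0.18 ± 0.07, SE, adjusted p = 0.088), and in SKNO-1 229.9, 233 and 237 CPM and then 221, 209 and 211 CPM (log2 -0.12 ± 0.07, SE, adjusted p = 0.19). The treated libraries lay below the DMSO libraries in all 3 lines, by a small margin in MV4-11 and SKNO-1, where its changes were the smallest among members with a mean of at least 5 CPM. Without the high-mitochondrial libraries its log2 change in MV4-11 was -0.20. SKNO-1 has no such library, so its change stayed at -0.12 in that setting, where only the spread shared with the other lines differed. BUB3 was called lower in SKNO-1 there, and also in a separate fit of SKNO-1.

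Kinesins are motor proteins that build the spindle and move chromosomes and midzone proteins along microtubules. All 9 were called lower in every line, with medians of -1.26 for Molm-14, -0.87 for MV4-11 and -1.23 for SKNO-1. KIF20A, which carries the chromosomal passenger complex to the spindle midzone, read 25.9, 27.8 and 30.1 CPM and then 16.8, 17.9 and 13.9 CPM in Molm-14 (log2 -0.79 ± 0.10, SE, adjusted p = 2.1e-05). It read 36.7, 36.6 and 39.2 CPM and then 19.6, 18.1 and 20.7 CPM in MV4-11 (log2 -0.94 ± 0.10, SE, adjusted p = 1.8e-05), and 35.9, 35.6 and 37.4 CPM and then 15.6, 13.96 and 17.1 CPM in SKNO-1 (log2 -1.23 ± 0.10, SE, adjusted p = 4.1e-07). The groups were separate in all 3 lines. KIF11, the motor that pushes the spindle poles apart, fell 2.62-fold, 1.75-fold and 2.17-fold for Molm-14, MV4-11 and SKNO-1. KIF2C, which takes microtubule ends apart at centromeres, fell 2.91-fold, 1.82-fold and 2.66-fold. KIF14, which acts in cytokinesis, and KIF15, a spindle motor that can stand in for KIF11, had the largest kinesin falls in Molm-14, at 3.21-fold and 3.62-fold. KIF18A, which keeps chromosomes near the spindle equator, fell 1.95-fold, 1.75-fold and 2.13-fold. KIF4A, a chromosome-bound motor, was called in every line, but its MV4-11 call was lost without RMC-4550 replicate 1 (-0.64) or replicate 3 (-0.74). KIF20B, a motor of late cytokinesis, had the smallest kinesin fall in Molm-14 and lost that call without DMSO replicate 1 (-0.59), RMC-4550 replicate 1 (-0.49) or RMC-4550 replicate 3 (-0.52). In MV4-11 its call was lost without DMSO replicate 3 (-0.67), RMC-4550 replicate 2 (-0.80) or RMC-4550 replicate 3 (-0.66).

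The centromere is marked by nucleosomes with the histone H3 variant CENPA, on which the kinetochore that grips microtubules is built. All 11 members of this role were called lower in every line, with medians of -1.26, -1.08 and -1.56 for Molm-14, MV4-11 and SKNO-1, and treated and DMSO libraries did not overlap for any of them. CENPA read 13.7, 13.2 and 14.9 CPM with DMSO and 8.47, 7.56 and 9.502 CPM with RMC-4550 in Molm-14 (log2 -0.71 ± 0.12, SE, adjusted p = 0.00023). It read 17.3, 18.8 and 20.6 CPM and then 11.3, 10.8 and 12.8 CPM in MV4-11 (log2 -0.70 ± 0.12, SE, adjusted p = 0.0011), and 16.8, 19.5 and 18.7 CPM and then 8.88, 10.02 and 7.72 CPM in SKNO-1 (log2 -1.05 ± 0.12, SE, adjusted p = 1.1e-05). Its falls were among the smaller ones of the role. HJURP, the chaperone that loads CENPA into chromatin, fell 2.00-fold, 2.41-fold and 2.95-fold.

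The NDC80 complex, which holds the microtubule end, is made of NDC80, NUF2, SPC24 and SPC25. NUF2 had the largest fall of the members of MV4-11, from 35.9, 33.6 and 38.4 CPM to 16.6, 12.9 and 11.1 CPM (log2 -1.43 ± 0.18, SE, adjusted p = 6.2e-05). Molm-14 gave 41.01, 40.1 and 37.2 CPM and then 13.4, 18 and 10.97 CPM (log2 -1.51 ± 0.18, SE, adjusted p = 7.6e-06), and SKNO-1 gave 26.9, 24.05 and 24.2 CPM and then 10.5, 6.82 and 8.41 CPM (log2 -1.56 ± 0.18, SE, adjusted p = 9.5e-06). The 3 falls of NUF2 lay within 1 SE of each other. SPC25 fell 3.36-fold, 2.50-fold and 3.59-fold, SPC24 2.39-fold, 2.38-fold and 3.23-fold, and NDC80 2.45-fold, 2.12-fold and 2.55-fold. The inner kinetochore genes CENPI, CENPK and CENPM fell between 1.85-fold (CENPM in MV4-11) and 3.23-fold (CENPK in SKNO-1). CENPE, a kinetochore motor, fell 1.81-fold, 2.06-fold and 2.05-fold, and CENPF, a large outer kinetochore protein, fell 1.69-fold, 1.52-fold and 1.82-fold.

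The chromosomal passenger complex corrects wrong attachments and then moves to the midzone to start cytokinesis. Its 4 genes were all called lower in SKNO-1 and Molm-14, with medians of -1.25 and -1.19, and 2 were called in MV4-11, with a median of -0.63. AURKB, its kinase, read 39.1, 37.7 and 40.1 CPM with DMSO in Molm-14 and 17.9, 21.3 and 19.3 CPM with RMC-4550, a 2.001-fold fall (SE 0.11 on the log2 scale, adjusted p = 2.2e-06). MV4-11 gave 53.9, 43.98 and 51.4 CPM and then 25.9, 23.9 and 23.3 CPM (log2 -1.03 ± 0.11, SE, adjusted p = 9.3e-06), and SKNO-1 gave 38.5, 47.3 and 43.5 CPM and then 14.1, 17.1 and 15.2 CPM (log2 -1.48 ± 0.11, SE, adjusted p = 7.9e-08). AURKB fell by about the same amount in Molm-14 and MV4-11. INCENP, the scaffold, read 29.6, 61.8 and 23.6 CPM and then 20.1, 33.6 and 32.8 CPM in MV4-11, overlapping groups (log2 -0.32 ± 0.31, SE, adjusted p = 0.57), and fell 2.30-fold in Molm-14 and 2.20-fold in SKNO-1. BIRC5, survivin, read 40.03, 56.3 and 35.7 CPM and then 23.4, 32.8 and 32.02 CPM in MV4-11, separate groups with an adjusted p of 0.051, and fell 2.34-fold and 2.31-fold in the other lines. In both genes the 1 DMSO library of MV4-11 under 10% mitochondrial reads was the highest. Without the high-mitochondrial libraries INCENP (-0.90) and BIRC5 (-0.80) were called in MV4-11, and BIRC5 also without DMSO replicate 3 alone (-0.71). The SKNO-1 call of INCENP was lost without RMC-4550 replicate 3 (-1.07). CDCA8, borealin, fell 2.27-fold, 1.61-fold and 2.45-fold, and its MV4-11 call was lost without DMSO replicate 2 (-0.54) or RMC-4550 replicate 1 (-0.52).

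Cytokinesis closes the cell in the middle with an actin ring placed by the spindle midzone. Of its 4 members, 3 were called lower in Molm-14 and 2 in MV4-11, and all 3 that could be tested were called in SKNO-1. ANLN, anillin, which ties the ring to the membrane, read 59.4, 58.2 and 58.2 CPM and then 24.9, 18.7 and 23.6 CPM in Molm-14 (log2 -1.40 ± 0.12, SE, adjusted p = 3e-07). It read 56.4, 70.9 and 60.5 CPM and then 31.1, 34.02 and 27.96 CPM in MV4-11 (log2 -1.01 ± 0.12, SE, adjusted p = 4.2e-05), and 69.8, 63.2 and 60.03 CPM and then 31.3, 24.8 and 26.8 CPM in SKNO-1 (log2 -1.22 ± 0.12, SE, adjusted p = 2.3e-06). Anillin RNA fell at least 2-fold by the fitted change in each line, with no overlap. ECT2, the exchange factor that activates RhoA at the midzone, fell 2.55-fold, 1.80-fold and 2.96-fold, and its MV4-11 call was lost without DMSO replicate 2 (-0.52), RMC-4550 replicate 1 (-0.72) or RMC-4550 replicate 3 (-0.86). RACGAP1, which pairs with KIF23 in the centralspindlin complex, fell 2.02-fold in Molm-14 and 2.19-fold in SKNO-1. In MV4-11 RACGAP1 read 44.7, 73.8 and 42.3 CPM and then 34.9, 43.6 and 45.1 CPM, overlapping groups with no call (log2 -0.34 ± 0.20, SE, adjusted p = 0.33), and without the high-mitochondrial libraries it was called at -0.73.

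The spindle assembly genes TPX2, ASPM and HMMR were called lower in every line, and NUSAP1 in none. TPX2, which activates Aurora A on spindle microtubules, read 104, 109 and 102 CPM and then 52.7, 30.9 and 50.1 CPM in Molm-14 (log2 -1.28 ± 0.18, SE, adjusted p = 4.6e-05). It read 77.5, 126 and 82.8 CPM and then 54.1, 63.4 and 58.3 CPM in MV4-11 (log2 -0.67 ± 0.18, SE, adjusted p = 0.023), and 145, 129.5 and 129 CPM and then 60.8, 50.2 and 55.3 CPM in SKNO-1 (log2 -1.28 ± 0.18, SE, adjusted p = 8.6e-05). The groups were separate in all 3 lines, and the highest MV4-11 DMSO value came from replicate 2. The MV4-11 call of TPX2 was lost without DMSO replicate 2 (-0.45), RMC-4550 replicate 1 (-0.62) or RMC-4550 replicate 3 (-0.67). ASPM, a spindle pole protein, fell 2.24-fold, 1.53-fold and 2.02-fold, and its MV4-11 call was lost without RMC-4550 replicate 3 (-0.58). HMMR, a spindle-bound hyaluronan receptor, fell 2.85-fold, 1.91-fold and 1.94-fold.

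Anaphase begins when CDC20 turns on the anaphase-promoting complex (APC/C), which destroys securin and frees separase to cut cohesin. All 4 members of this role were called lower in every line. CDC20 read 77.8, 79.2 and 78.5 CPM and then 38.9, 28.4 and 39.9 CPM in Molm-14 (log2 -1.15 ± 0.17, SE, adjusted p = 4.3e-05). It read 53.8, 78.7 and 54.4 CPM and then 31.4, 44.8 and 47.8 CPM in MV4-11 (log2 -0.59 ± 0.17, SE, adjusted p = 0.025), and 72.5, 77.01 and 77.6 CPM and then 26.97, 29.04 and 29.4 CPM in SKNO-1 (log2 -1.41 ± 0.17, SE, adjusted p = 1.1e-05). The MV4-11 call of CDC20 was lost without DMSO replicate 2 (-0.41) or RMC-4550 replicate 1 (-0.41). ESPL1, separase, went from 40.2, 38.4 and 41.6 CPM to 26.5, 24.98 and 22 CPM in Molm-14, a 1.64-fold fall. ESPL1 went from 55.3, 53.9 and 51.1 CPM to 25.5, 26.8 and 30.1 CPM in MV4-11, a 1.95-fold fall, and from 52.7, 54.8 and 53.96 CPM to 20.5, 23.6 and 19.8 CPM in SKNO-1, a 2.53-fold fall. Its adjusted p-values were 1.6e-05, 4.1e-06 and 4.5e-08 in that order. ESPL1 was a member whose fall was larger in MV4-11 than in Molm-14, unlike CDC20. PTTG1, securin, fell 1.84-fold, 1.83-fold and 2.04-fold, and UBE2C, the ubiquitin-conjugating enzyme of the APC/C, fell 1.71-fold, 2.06-fold and 2.33-fold.

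Among the genes of chromosome structure, 5 of 6 were called lower in each line. TOP2A, the topoisomerase that untangles sister DNA, read 215, 221 and 215 CPM and then 107, 143 and 102 CPM in Molm-14 (log2 -0.90 ± 0.12, SE, adjusted p = 1.5e-05). It read 291, 296 and 312 CPM and then 164, 144 and 125 CPM in MV4-11 (log2 -1.06 ± 0.12, SE, adjusted p = 1.7e-05), and 322, 289 and 281 CPM and then 123, 110.5 and 117 CPM in SKNO-1 (log2 -1.35 ± 0.12, SE, adjusted p = 4.2e-07). TOP2A groups were separate in each line. MKI67, which codes for the proliferation marker Ki-67 that coats mitotic chromosomes, went from 304, 339 and 333 CPM to 163, 96.6 and 153 CPM in Molm-14 (log2 -1.28 ± 0.25, SE, adjusted p = 0.00068). It went from 328, 257 and 242 CPM to 109.9, 97.5 and 94.3 CPM in SKNO-1 (log2 -1.45 ± 0.25, SE, adjusted p = 0.00046). In MV4-11 it read 168, 342 and 173 CPM and then 104, 168 and 153 CPM, with no call (log2 -0.64 ± 0.25, SE, adjusted p = 0.11). The DMSO library of MV4-11 under 10% mitochondrial reads had about the MKI67 level of the DMSO libraries of Molm-14, and the other 2 lay just above the highest treated value. Without the high-mitochondrial libraries MKI67 was called in MV4-11 at -1.10.

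Condensin compacts chromosomes, and 4 of its subunits are members. NCAPG and NCAPH fell 2.95-fold and 3.44-fold in Molm-14, 1.80-fold and 1.69-fold in MV4-11 and 2.57-fold and 3.14-fold in SKNO-1, and SMC2 fell 2.04-fold, 1.67-fold and 2.15-fold. SMC4, the ATPase partner of SMC2, read 750.4, 739 and 717 CPM with DMSO in Molm-14 and 609, 974 and 604 CPM with RMC-4550, where the high-mitochondrial library gave the highest value (log2 -0.05 ± 0.16, SE, adjusted p = 0.81). In MV4-11 it read 438, 404 and 468 CPM and then 316, 285 and 252 CPM (log2 -0.62 ± 0.16, SE, adjusted p = 0.015), and in SKNO-1 264, 209 and 204 CPM and then 184, 156 and 158 CPM (log2 -0.43 ± 0.16, SE, adjusted p = 0.052). Groups were separate in MV4-11 and SKNO-1 only, and the Molm-14 change was the smallest there among members with a mean of at least 5 CPM. Without the high-mitochondrial libraries SMC4 was called lower in Molm-14 (-0.28). It was also called in SKNO-1, which has no such library and kept its change (-0.43). The MV4-11 call of SMC4 was lost without DMSO replicate 3 (-0.57) or RMC-4550 replicate 3 (-0.54). The SKNO-1 call was also made with log2(CPM + 1), a separate fit and voom weights.

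**Figure D3:**
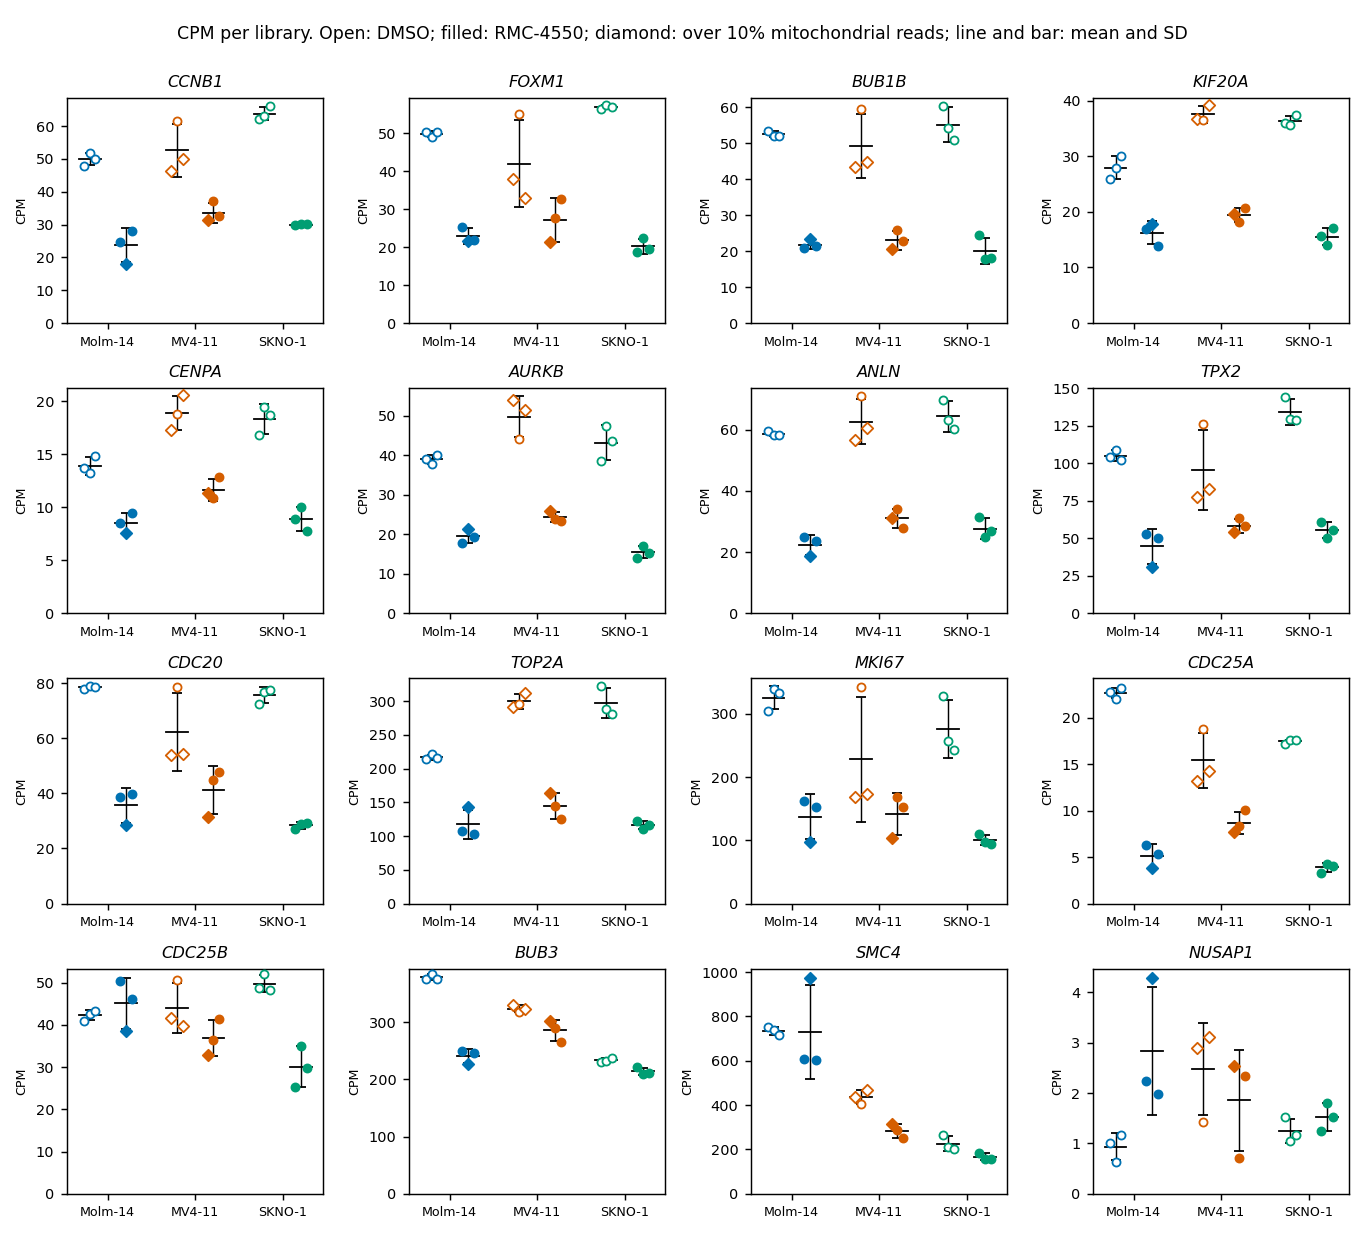
CPM in each library for 16 mitosis genes, with open symbols for DMSO, filled symbols for RMC-4550, diamonds for the libraries above 10% mitochondrial reads, and a line and bar for the mean and SD of each group (n = 3). CDC25A drops in every line, BUB3 and CDC25B shift little in some lines, and SMC4 and NUSAP1 in Molm-14 have their highest treated value in a diamond.

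PRC1 and NUSAP1 stood apart from the other 58 members by their level. Mean CPM over the 18 libraries per kilobase of annotated exons was 0.204 for PRC1 and 0.631 for NUSAP1, and 1.45 to 50.8 with a median of 7.78 for the others. PRC1, which bundles the antiparallel microtubules of the midzone, read 1.39, 1.21 and 1.78 CPM and then 0.929, 2.05 and 0.961 CPM in Molm-14 (log2 -0.23 ± 0.36, SE, adjusted p = 0.62). It read 1.56, 1.07 and 0.598 CPM and then 1.16, 1.16 and 0.863 CPM in MV4-11 (log2 0.07 ± 0.36, SE, adjusted p = 0.93), and 1.34, 0.872 and 1.08 CPM and then 0.555, 0.835 and 0.828 CPM in SKNO-1, where it was not tested. PRC1 groups overlapped in Molm-14 and MV4-11. NUSAP1, a microtubule-bundling protein of the spindle, read 1.00, 0.634 and 1.17 CPM with DMSO in Molm-14 and 2.24, 4.29 and 1.98 CPM with RMC-4550 (log2 1.53 ± 0.44, SE, adjusted p = 0.01). That is the 1 member called higher in any line. In MV4-11 it read 2.91, 1.43 and 3.11 CPM and then 2.54, 0.709 and 2.33 CPM (log2 -0.53 ± 0.44, SE, adjusted p = 0.49), and in SKNO-1 1.52, 1.06 and 1.18 CPM and then 1.25, 1.81 and 1.52 CPM (log2 0.28 ± 0.44, SE, adjusted p = 0.69). The Molm-14 call was lost without DMSO replicate 2 (1.28), without RMC-4550 replicate 2, the high-mitochondrial library (1.19), and with quantile normalization (1.12).

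Both genes share most of their exons with another annotated gene. In GENCODE 29 on GRCh38, PRC1 lies on the minus strand at chr15:90966038-90995629, and 58.4% of its 5525 exonic bases are also exons of other genes. The protein-coding gene AC068831.7, on the same strand, covers 57.6% of them, and the antisense gene PRC1-AS1 covers 7.35%. NUSAP1 lies on the plus strand at chr15:41332694-41381050. AC087721.2, protein-coding on the same strand, covers 62.2% of the 2875 exonic bases of NUSAP1. The deposited expression table holds no values for AC087721.2. Among the other 58 members the shared part was 0 to 33.1% with a median of 0, the highest being NCAPG with LCORL on the opposite strand and then SMC4 (25.6%) with TRIM59 and IFT80. AC068831.7, looked at after these values were seen, read 9.11, 10.7 and 9.36 CPM with DMSO and 6.23, 3.97 and 7.07 CPM with RMC-4550 in Molm-14 (log2 -0.79 ± 0.18, SE, adjusted p = 0.0021). It read 11.5, 12.3 and 10.4 CPM and then 5.86, 7.04 and 5.99 CPM in MV4-11 (log2 -0.86 ± 0.18, SE, adjusted p = 0.0044), and 9.04, 10.6 and 9.89 CPM and then 4.07, 5.47 and 4.46 CPM in SKNO-1 (log2 -1.08 ± 0.18, SE, adjusted p = 0.00034). It was higher than PRC1 in every library and was called lower in all 3 lines. How reads in shared exons were assigned is not given in the sources used here, so the values of PRC1 and NUSAP1 are uncertain, and the part of the shared exons in them was not tested.

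**Figure D4:**
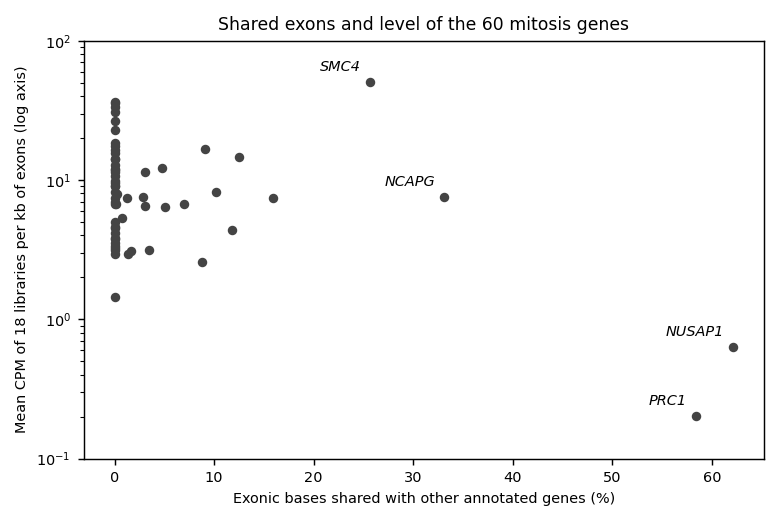
Mean CPM of 18 libraries per kilobase of annotated exons (log axis) against the percent of exonic bases shared with other GENCODE 29 genes, with 1 point for each of the 60 mitosis genes. PRC1 (58.4%, 0.204) and NUSAP1 (62.2%, 0.631) lie at the lower right, and the other 58 members lie at 33.1% or less and at 1.45 or more.

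The difference in response between lines was tested as a contrast of its own. SKNO-1 against the mean of the 2 FLT3-ITD lines gave 4 of 59 members with a larger fall in SKNO-1, against 2.45% of 12792 genes, and none with a smaller one, against 1.35% (3.8% in either direction). They were MYBL2 (log2 -0.82 ± 0.15, SE, adjusted p = 0.0054), ESPL1 (log2 -0.50 ± 0.11, SE, adjusted p = 0.018), CDC25B (log2 -0.65 ± 0.16, SE, adjusted p = 0.03) and KIF23, a midzone kinesin (log2 -0.53 ± 0.14, SE, adjusted p = 0.04). The CDC25B difference rests on SKNO-1 values that fell where those of Molm-14 did not. Leaving out any single library left MYBL2 called, while ESPL1 (4 SKNO-1 libraries: DMSO replicates 2 and 3, RMC-4550 replicates 1 and 3), CDC25B and KIF23 lost their call without any of 4, 11 and 14 single libraries, at differences of -0.50 to -0.45, -0.67 to -0.53 and -0.57 to -0.44. The count ranged from 1, without SKNO-1 DMSO replicate 2, DMSO replicate 3 or RMC-4550 replicate 3, to 8, without MV4-11 DMSO replicate 2. When the high-mitochondrial libraries were left out, 22 members had a larger fall in SKNO-1 and 1 a smaller one, against 11.3% and 7.29% of all genes. With the share of mitochondrial reads as a term in the fit these were 29 and 2, against 12% and 7.47%. With all libraries and without that term, the median difference was -0.31, against -0.05 over all genes tested, and 56 of 59 were negative. For SKNO-1 against Molm-14 alone the median was -0.11, with 41 negative, and against MV4-11 alone -0.45, with 55 negative. Set against Molm-14 alone, SKNO-1 gave a larger fall in 3 of 59 members (5.1%), CDC25B, HJURP and ESPL1, below the 6.73% of all genes. SKNO-1 gave a smaller fall in BUB3 alone, against 4.14% of genes. Set against MV4-11 alone, it gave CDC25A, MYBL2, KIF23 and CENPM with a larger fall and none with a smaller one, against 1.17% and 0.482% of genes (1.66% in either direction). These contrasts share the SKNO-1 libraries.

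Molm-14 against MV4-11 gave 11 of 60 members, 10 with a larger fall in Molm-14 and NUSAP1 in the other direction, against 9.12% and 10.3% of 13458 genes. The share called in either direction was 19.5% over all genes, near that of the members. The smallest adjusted p-values were those of MYBL2 (log2 -0.96 ± 0.18, SE, adjusted p = 0.0021), CDC25A (log2 -1.34 ± 0.25, SE, adjusted p = 0.0023) and BUB3 (log2 -0.47 ± 0.10, SE, adjusted p = 0.004), which kept their calls without any 1 library, as did KIF2C (log2 -0.67 ± 0.16, SE, adjusted p = 0.011) and NCAPH (log2 -1.03 ± 0.25, SE, adjusted p = 0.012). BUB1, CCNA2, KIF15, NCAPG and TTK each lost the call without any of 8 single libraries and NUSAP1 without any of 6. None of the 11 centromere and kinetochore members was among the 11. The count was 33 without MV4-11 DMSO replicate 2, the 1 DMSO library of that line under 10% mitochondrial reads. Without the high-mitochondrial libraries, which leaves 1 DMSO library in MV4-11, KIF15 (-0.27), CCNA2 (-0.21), BUB1 (-0.30), NCAPG (-0.32) and TTK (-0.23) lost their calls. NUSAP1 (1.34) lost its call as well. The count's lowest value over the omission of 1 library was 5, without Molm-14 DMSO replicate 2, Molm-14 RMC-4550 replicate 2, or any 1 of MV4-11 DMSO replicates 1 and 3 and RMC-4550 replicate 2. With 1 library left out, the share of all genes was not counted. Of the 60 members, 12 had the more negative change in MV4-11, HJURP and ESPL1 among them.

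With all DMSO libraries in the fit, the share of members that differed between lines lay below the share of all genes. Between the DMSO libraries of Molm-14 and MV4-11, 23 of 60 members were called in either direction, against 54.2% of 14472 genes. SKNO-1 and Molm-14 gave 25, against 65.3% of 14793 genes, and SKNO-1 and MV4-11 gave 17, against 42.5% of 14748 genes. SMC4 had the smallest adjusted p of the members between SKNO-1 and Molm-14 (log2 -1.72 ± 0.16, SE, adjusted p = 7.2e-08) and BUB3 between SKNO-1 and MV4-11 (log2 -0.47 ± 0.07, SE, adjusted p = 4.2e-05), both lower in SKNO-1. CDK1 was also lower in SKNO-1 than in Molm-14 (-0.67) and MV4-11 (-0.56). HJURP had the smallest adjusted p between Molm-14 and MV4-11 and was lower in Molm-14 (log2 -0.56 ± 0.10, SE, adjusted p = 0.00019). Without MV4-11 DMSO replicate 2 the count was 32 for Molm-14 with MV4-11 and 37 for SKNO-1 with MV4-11. The share of all genes was not counted in that setting. The members are therefore not shown to lie below all genes in the pairs with MV4-11 when that library is left out. The lowest values of the same counts were 11, without MV4-11 DMSO replicate 1, and 5, without MV4-11 DMSO replicate 3. Per kilobase of exons, the highest mean DMSO level of the 60 was that of SMC4 in Molm-14 (87.0 CPM per kb), UBE2C in MV4-11 (60.3) and MYBL2 in SKNO-1 (48.1, with UBE2C at 47.7). Apart from PRC1 and NUSAP1, CENPI had the lowest in each line, at 1.83 to 2.33 CPM per kb.

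Genes of the same machinery outside the 60 were counted from lists by role. Over all genes tested, the shares called lower were 25.2% for Molm-14, 8.03% for MV4-11 and 16.2% for SKNO-1. Of 26 other kinetochore and centromere genes, 20 were called lower for Molm-14, 16 for MV4-11 and 18 for SKNO-1, with medians of -0.77, -0.61 and -0.90. KNL1, the platform for checkpoint proteins, ZWINT, which binds it, and SKA3, a subunit of the microtubule-tracking SKA complex, had log2 changes of -1.39, -1.48 and -1.63 in SKNO-1 and were called lower in every line. PMF1, a MIS12 complex subunit, was called higher in Molm-14 (log2 0.78 ± 0.22, SE, adjusted p = 0.0085). All 4 other condensin subunits were called lower in SKNO-1 and Molm-14 and 3 in MV4-11, NCAPD3 with the largest change (-1.45, -0.78 and -1.64). Of 16 other mitotic kinases, their brakes and partners, 14, 11 and 14 were called lower, among them MELK (-1.65, -1.40 and -1.67) and the CDK1 inhibitory kinase PKMYT1 (-1.69, -0.85 and -1.77).

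Fewer of the APC/C and cohesin genes were called. Of 16 genes for APC/C subunits, activator FZR1 and enzyme UBE2S, 7, 6 and 6 were called lower, with medians of -0.10, -0.27 and -0.36, and ANAPC2 (0.47) and ANAPC16 (0.49) were called higher in Molm-14. UBE2S, which elongates ubiquitin chains with UBE2C, had the largest fall of that list in every line (-1.06, -0.81 and -1.09). Of 15 cohesin genes, 8, 4 and 7 were called lower, with ESCO2 at -2.23 in Molm-14 and -2.06 in SKNO-1 and CDCA5 (sororin) at -1.94 and -1.40. ESCO2 acetylates cohesin in S phase. SGO1, shugoshin, which shields cohesin at centromeres, was called in all 3 lines (-0.83, -1.27 and -1.16). Of 11 MuvB and DREAM subunits, 7, 1 and 6 were called lower, against 25.2%, 8.03% and 16.2% of all genes. E2F4 was the member called in MV4-11 (log2 -0.36 ± 0.10, SE, adjusted p = 0.025), a share of the list near that of all genes.

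Genes of DNA replication fell as well. Of 24 DNA replication genes, 24 were called lower for Molm-14, 19 for MV4-11 and 22 for SKNO-1, with medians of -1.30, -0.62 and -1.41, close to those of the mitosis genes in Molm-14 and SKNO-1. MCM10 changed by -2.29, -1.03 and -2.62, and CDC45, a part of the replicative helicase, by -1.86, -1.26 and -2.28. Of 10 cell cycle inhibitors and antiproliferative genes, 4 were called higher for Molm-14, 1 for MV4-11 and 1 for SKNO-1, and 2, 1 and 2 were called lower. The shares of all genes were 21.5%, 5.85% and 10.8% higher and 25.2%, 8.03% and 16.2% lower. CDKN1C, the inhibitor p57, was called higher in all 3 lines, with log2 changes of 2.84, 0.70 and 0.65 for Molm-14, MV4-11 and SKNO-1. GADD45A, a stress-induced inhibitor, had lower calls, at -0.66 in MV4-11 and -1.01 in Molm-14. CDKN2C, the inhibitor p18, was called higher in Molm-14 (0.37) and lower in SKNO-1 (-0.47).

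**Figure D5:**
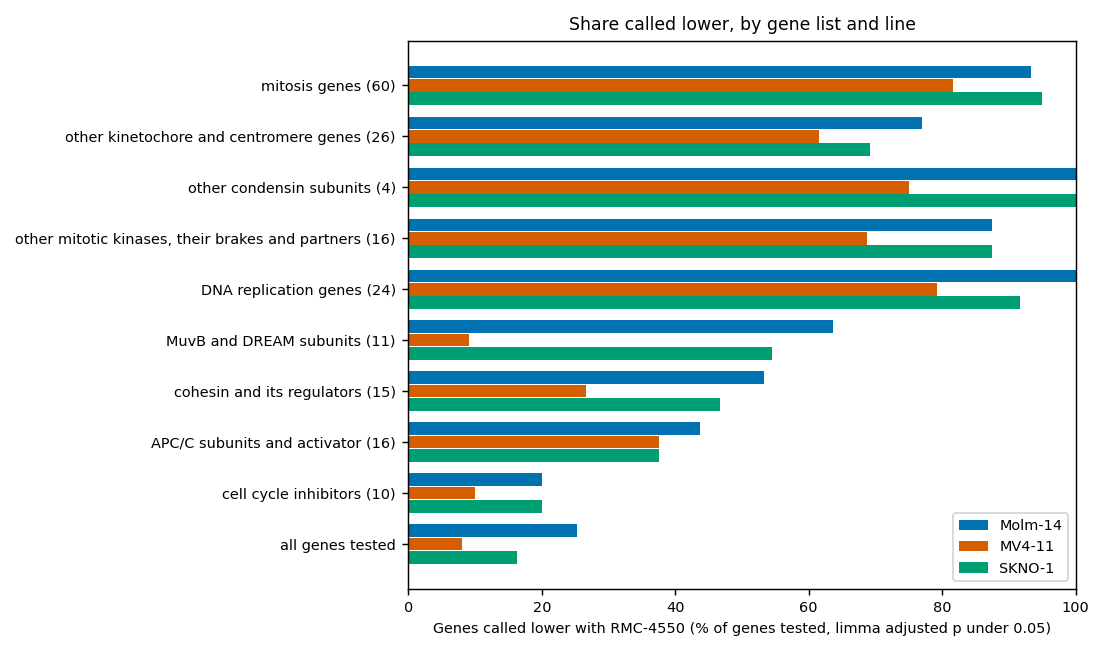
Percent of tested genes called lower with RMC-4550 in each line for the mitosis genes, 8 other gene lists and all genes tested, with the number of listed genes in brackets. The mitosis genes reach 93.3%, 81.7% and 94.9% for Molm-14, MV4-11 and SKNO-1, and all genes reach 25.2%, 8.03% and 16.2%.

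Changes were also set beside the promoter motifs. The median log2 change of the 36 members with a CHR was -1.19 for Molm-14, -0.81 for MV4-11 and -1.29 for SKNO-1, and that of the 15 without was -1.25, -0.91 and -1.41. The 27 members with both a CHR and a CCAAT box had medians of -1.17, -0.75 and -1.26, and the 24 others had -1.28, -0.93 and -1.39. CDC20, with both motifs, and CENPK, with CCAAT boxes and no CHR in the window printed above, fell 2.66-fold and 3.23-fold in SKNO-1. NUSAP1 and PRC1 hold both motifs, and CDC25B holds neither. These medians are given without a test.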

How the data were processed

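RNA-seq of 18 libraries from 3 acute myeloid leukaemia lines was read from the authors' deposited table of log2 values, 1 column per library. The submitters' processing notes name FastQC, STAR, limma and GRCh38, without roles, and the read counter, annotation, strand setting and options are not given in the sources used here. The deposited log2 values were used as they stand, and CPM in the text is 2 to that power. The steps between low values gave whole reads within 0.05 for 100% of values, from which library totals of 17434810 to 19959917 were recovered; precision is set by these totals and by 3 libraries a group. All columns matched a sample by name. The tests had been written for linear or log2 values, and the log2 form was used.

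One limma model (version 3.58.1, R 4.3.3) with 6 groups was fitted to all genes that passed the filter of 1 CPM in 3 libraries, with moderated tests and Benjamini-Hochberg adjusted p over all genes of a comparison. The script was tested on simulated data. Members were named by role: all 60 are accounted for, and values per library are given for a listed gene of each role, for MKI67, for members not called lower where most of their role was, for the largest and smallest change in each line (mean of at least 5 CPM) and for up to 3 members with the smallest adjusted p between lines. From other lists, up to 3 genes with the largest change and those called against the list are named. The members and lists were chosen with earlier results of these data known. Promoters came from RefSeq (GRCh38.p14) and exons from GENCODE 29. Same-numbered libraries did not deviate together in each line (r from -0.40 to 0.59), so no pairing was used. Alternatives changed the pseudocount, filter, scaling, fit, covariates and libraries. Plots used Python 3.11.15 and matplotlib 3.10.9. One marker of another cell type is not reported here.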

Additional observations from a re-analysis of the deposited data

Results flagged for a closer look

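These members had a response to RMC-4550 that differed between lines by limma's test of the difference itself. Changes are log2, and a negative difference means a larger fall in the first line.

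For SKNO-1 against the FLT3-ITD lines, MYBL2 differed by -0.818, ESPL1 by -0.504, CDC25B by -0.653 and KIF23 by -0.527. For Molm-14 against MV4-11, CDC25A differed by -1.344, NCAPH by -1.026, MYBL2 by -0.964, KIF15 by -0.916, CCNA2 by -0.883, BUB1 by -0.88, NCAPG by -0.713, KIF2C by -0.672, TTK by -0.505 and BUB3 by -0.473. NUSAP1 differed by 2.063 in the other direction. Without the 4 high-mitochondrial libraries KIF15 (-0.265), CCNA2 (-0.21), BUB1 (-0.3), NCAPG (-0.319), TTK (-0.226) and NUSAP1 (1.338) lost their calls. The share of members called between Molm-14 and MV4-11 was near that of all genes, and in MV4-11 2 of 3 DMSO libraries had over 10% mitochondrial reads.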

How the results depend on the processing

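Members called lower, under every alternative run, kept a negative change. Leaving out 1 library gave 55 to 56 members lower in Molm-14, 42 to 50 in MV4-11 and 55 to 56 in SKNO-1, and in every such fit 55 of 56, 39 of 49 and 55 of 56 remained called. A separate fit of MV4-11 gave 32. Over all other settings the member median lay between -1.21 and -1.03 in Molm-14, -1.003 and -0.757 in MV4-11 and -1.31 and -1.20 in SKNO-1. Of the single-member results under alternatives, 6400 kept their side of the threshold, 157 passed it and 165 lost it. The cause of these shifts was not tested.

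Counts between lines moved more, and the shares of all genes called moved as well. For SKNO-1 against the FLT3-ITD lines, 0.595% of all genes were lower and 0.403% higher with no filter. At a fold of at least 1.5 these shares were 1.6% and 0.891%, and with the mitochondrial term 12% and 7.47%. For Molm-14 against MV4-11 they were 2.05% and 2.3% with no filter, and 3.86% and 4.75% in a separate fit. With 1 library left out, shares of all genes were not counted. For SKNO-1 against the FLT3-ITD lines (4) the count was 1 with no filter, 2 at a fold of at least 1.5, 31 with the mitochondrial term and 23 without the 4 high-mitochondrial libraries, and 1 to 8 when 1 library was left out. For Molm-14 against MV4-11 (11) it was 5 with no filter, 3 in a separate fit, 6 without the 4 libraries, and 5 to 33. DMSO levels of Molm-14 and MV4-11 (23) gave 4 at that fold, against 18.6% of all genes lower and 17.8% higher, and 11 to 32. Those of SKNO-1 and Molm-14 (25) gave 44 in a separate fit, 8 at that fold, 39 with the mitochondrial term, and 17 to 22. Of all genes, 43.1% were lower and 39.9% higher in the separate fit, and 25.1% and 25% at that fold. With the mitochondrial term these shares were 41.7% and 37.9%. DMSO levels of SKNO-1 and MV4-11 (17) gave 9 with no filter, 11 in a separate fit, 5 at that fold, and 5 to 37. Of all genes, 9.08% were lower and 7.02% higher with no filter, and 19.4% and 17.9% in the separate fit. At that fold these shares were 14.6% and 12.4%.

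Same-numbered libraries are not known to be paired. With the replicate number as a block, 56, 53 and 57 members were lower for Molm-14, MV4-11 and SKNO-1. Of all genes, 27.3%, 7.88% and 17.6% were lower in these lines. The contrasts between lines gave 2, 14, 21, 24 and 14 members in the order above. For the contrasts, in that order, 1.92%, 11.9%, 24.2%, 32.7% and 21% of all genes were lower and 1.14%, 12.1%, 27.1%, 31% and 18.1% higher. ESPL1 (-0.504) and CDC25B (-0.653) lost the call between SKNO-1 and the FLT3-ITD lines. Correlation was taken between the deviations of same-numbered libraries from their group means. It was -0.05 to 0.00 in Molm-14, -0.40 to 0.59 in MV4-11 and 0.01 to 0.13 in SKNO-1. Not every library's deviations correlated best with those of its own number.

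With 3 libraries a group, the values of PRC1 and NUSAP1 rest on few reads, and the part of depth in their missed calls was not tested.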
